A study of Caenorhabditis elegans with 4 samples.

Results

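The X chromosome held 343 of the 2162 peaks (15.9%) in the combined list of sites bound by HPL-2 in Caenorhabditis elegans larvae. The members are all peaks that the combined list places on X, whatever their strength, and each is named by its first and last base on the WormBase build WS220. HPL-2 was mapped with ChIP-seq (chromatin immunoprecipitation followed by sequencing), in which DNA fragments crosslinked to a protein are recovered with an antibody and read. The animals were hermaphrodites of strain YL474 at the starved L1 stage (the first larval stage), kept at 20 degrees Celsius. The strain carried lin-35(n745) on chromosome I, unc-119(ed3) on chromosome III and the transgene vrIs64, in which the ges-1 promoter drives HPL-2 tagged with GFP and 3xFlag in the intestine, together with unc-119(+). It had not been outcrossed. The series holds 4 samples of this strain, 2 ChIP samples taken with antibodies against GFP and 2 Input samples of genomic DNA. There is no sample with functional lin-35 and none without the tagged protein, so neither the effect of the mutation nor non-specific recovery can be read from these lists. Fixed whole animals were used, but the protein recovered was the tagged one made in the intestine. Binding of native HPL-2 was therefore not measured in any tissue.

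HPL-2 belongs to the heterochromatin protein 1 family, whose members bind nucleosomes methylated on lysine 9 of histone H3 and are known for gene silencing. LIN-35 is the worm counterpart of the retinoblastoma protein and part of a complex that represses germline and cell-cycle genes in the soma. The X chromosome of C. elegans has its own chromatin regulation. In hermaphrodites a condensin-based dosage compensation complex loads at recruitment elements on X, spreads along the chromosome and lowers its transcription. The positions of those elements on WS220 were not used here, and no overlap of peaks with them was examined.

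The authors' lists give for each peak its bounds and 1 q-value, the caller's false discovery rate, written here as -log10 q so that larger values mean stronger peaks. Strength is compared only within a list. The combined list was made from the same ChIP samples as the list of each replicate, and its order cannot count as a further measurement. Replicate 1 had 206 peaks on X among 1288, and replicate 2 had 41 among 177. The read depth behind the lists is unknown. None of the few peaks marked as altered by a build conversion (3 in the combined list) was on X. The genes whose sequence the transgene carries, ges-1, hpl-2 and unc-119, are on chromosomes V, III and III in the RefSeq gene table of assembly WBcel235, and none of them is on X. Peaks of 1 list are not replicates of an experiment. Shares therefore carry exact (Clopper-Pearson) 95% intervals that cover counting error only, and no difference between X and the autosomes was put to a test.

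X carried a small set of very strong sites beside many weak ones. In the combined list these sites were narrower than the strongest autosomal peaks. The median -log10 q of X peaks was 3.06, and those of the 5 autosomes ran from 3.07 to 3.27. The upper tail was another matter. The 95th percentile of -log10 q was 39.0 on X, against 14.4 on I, 16.1 on II, 13.6 on III, 11.2 on IV and 13.7 on V. In replicate 1 the 95th percentile was 48.0 on X and 12.9 over the autosomes together. In replicate 2 it was 23.7 on X and 8.07 over the autosomes. There chromosome I, with only 7 peaks, had 149, and the other autosomes had at most 8.92. The single strongest peak of each list was autosomal. It was on V in the combined list (163, against 107 on X) and in replicate 1 (123, against 83.8). In replicate 2 it was on I (211, against 32.9 on X). The weak end looked alike: 161 of the 343 X peaks (46.9%, interval 41.6 to 52.4%) had a -log10 q from 2 to 3, against 835 of 1819 autosomal peaks (45.9%, 43.6 to 48.2%). At 50 or more, the level of the 25 strongest peaks (1.16% of all combined peaks), there were 15 X peaks (4.37%, 2.47 to 7.11%) and 10 autosomal peaks (0.55%, 0.264 to 1.01%). From 20 to 50 there were 14 X peaks (4.08%, 2.25 to 6.75%) and 38 autosomal peaks (2.09%, 1.48 to 2.86%), with overlapping intervals. Between 10 and 20 the shares had the other order with overlapping intervals, with 10 X peaks (2.92%, 1.41 to 5.30%) and 97 autosomal peaks (5.33%, 4.35 to 6.47%). Of the classes given, only the one at 50 or more had separate intervals for X and the autosomes. That class was cut on these same values, so this is a description and not a test.

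**Figure D1:**
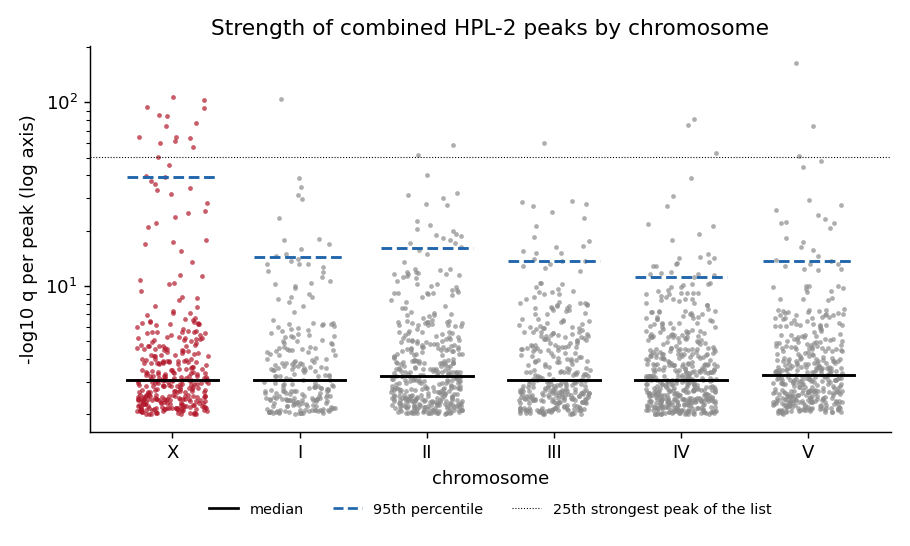
Strength of every combined peak (points, -log10 q on a log axis) by chromosome, with the median (black line), the 95th percentile (blue dashes) and the level of the weakest of the 25 strongest peaks (dotted line). The medians lie between 3.06 and 3.27 on all 6 chromosomes, while the 95th percentile is 39.0 on X and at most 16.1 elsewhere.

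The 15 X peaks among the 25 strongest of the combined list are the sites on which the account of X turns. They were chosen by their q-values in the combined list, so their strength there is a description. The site at X 2996220 to 2997851 had a -log10 q of 107 in the combined list, 83.8 in replicate 1 and 24.2 in replicate 2, with widths of 1632, 1524 and 1335 bp. The site at X 1503334 to 1505213 had values of 103, 76.6 and 23.7, with widths of 1880, 1658 and 1872 bp. Both were under 2 kb in each list and stood among the first 3 X peaks of each ChIP list. The site at X 16929318 to 16931988 had values of 94.6, 74.1 and 18.2, with widths of 2671, 2657 and 2525 bp. At X 14525246 to 14526898 they were 92.7, 63.2 and 32.9, with widths of 1653, 1599 and 1244 bp. The last of these was only the fifth X peak of replicate 1 but the first of replicate 2. The site at X 8035843 to 8037004 had values of 85.2, 69.5 and 20.9 in a stretch of 1162, 1151 and 991 bp. The site at X 11789606 to 11793852 differed from these in shape. It spanned 4247 bp, had values of 83.9, 61.0 and 12.2, and was 1 peak of 4201 bp in replicate 1 but 2 peaks in replicate 2, the better one 2359 bp wide.

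The other 9 strongest sites were at X 4208416 to 4210058, 6295829 to 6297208, 12362575 to 12363731, 11093636 to 11094943, 16055863 to 16056909, 9465307 to 9466225, 11605233 to 11606523, 13699926 to 13701254 and 4006843 to 4009274, in order of strength. Their -log10 q ran from 77.1 to 50.4 in the combined list. Of these 9 only the last was 2 kb wide or more (2432 bp), and the narrowest was the site at X 9465307, with 919 bp. The weakest site inside the set had a -log10 q of 50.4 (rank 25 of the list), and the first X peak outside it, at X 11936953 to 11937887, had 45.4 (rank 27, 935 bp).

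These sites also stood at the top of X in each ChIP list, although their order within the set differed in places. They were chosen in a list made from the same ChIP samples, so a high rank in each replicate is not independent support. The site at X 11789606, for example, had rank 6 on X in replicate 1 and rank 15 in replicate 2. The 15 sites were the 15 strongest X peaks of replicate 1, and in replicate 2 their best peaks took ranks 1 to 17 among the X peaks. The other replicate 2 peaks inside that range belonged to combined X peaks below the set, at X 11936953 (rank 16) and X 2364447 to 2365260 (rank 14 on X in replicate 2). The first was next after the set on X in the combined list. The second had rank 23 on X there and rank 25 on X in replicate 1, so the replicates differed on it. Over the 37 X peaks found in both ChIP lists, -log10 q in replicate 1 and in replicate 2 had a Spearman rho of 0.89 and a Pearson r of 0.90, given as a description because these sites share libraries. Without the 15 strongest, rho was 0.63 and r was 0.66 over 22 peaks. For the 113 autosomal peaks found in both lists, the strongest included, rho was 0.42 and r was 0.40. These sets are not alike in strength. The combined -log10 q of the 37 X peaks had a median of 37.5 (quartiles 17.7 and 64.7). That of the 113 autosomal peaks had a median of 13.2 (quartiles 8.47 and 23.6). A wider range of strength by itself raises rho, and no autosomal value without the strongest peaks was computed. Whether the replicates matched better on X was therefore not tested.

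**Figure D2:**
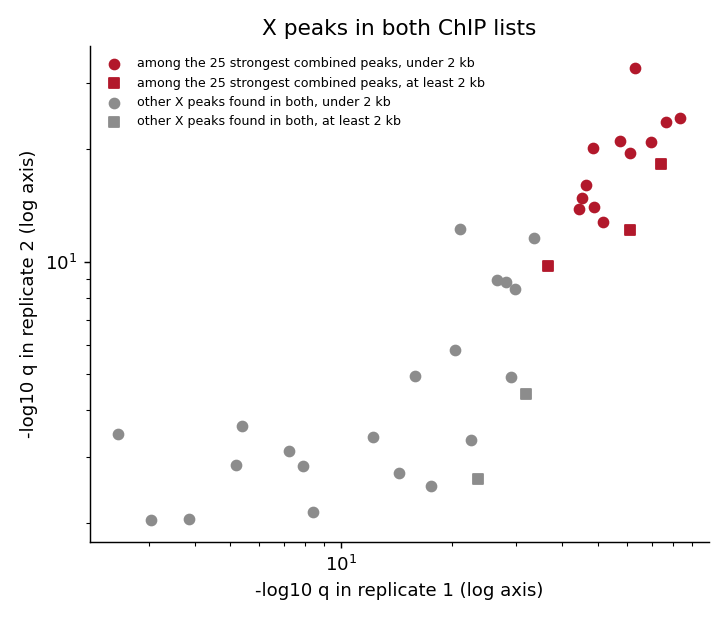
The 37 X peaks found in both ChIP lists, by -log10 q in replicate 1 (horizontal) and in replicate 2 (vertical, best peak), both on log axes. Red points are the 15 X peaks among the 25 strongest combined peaks, squares are peaks at least 2 kb wide, and the red points occupy the upper right with values from 36.7 to 83.8 in replicate 1 and from 9.74 to 32.9 in replicate 2.

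The replicates placed most of the strong X sites close to the same base. For the 15 sites, the midpoints of the replicate 1 peak and the best replicate 2 peak were a median of 84 bp apart (from 3.5 to 776 bp), and 13 of the 15 pairs lay within 200 bp. For the 10 autosomal peaks among the 25 strongest, the median distance was 1231 bp and 1 pair lay within 200 bp. The autosomal peaks are broad, and only 3 of those 10 were a single peak in both ChIP lists, against 14 of the 15 X sites. Replicate 2 held the sites as shorter stretches, although the calling settings behind the widths of each list are unknown: the median width of the 15 sites was 1397 bp in replicate 1 and 968 bp in replicate 2, and 14 of the 15 were narrower there. Over the 37 X peaks found in both lists, 34 were narrower in replicate 2, with a median width ratio of 0.778, and the midpoints were a median of 64 bp apart. The median distance over the 113 autosomal peaks found in both was 72.5 bp, so the contrast in median distance is seen only for the strongest peaks. Counted as pairs within 200 bp, there were 31 of 37 on X and 72 of 113 on the autosomes over all shared peaks.

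In the combined list, the strong X sites were narrow beside autosomal peaks of like strength, and wide beside the rest of X. Among the 25 strongest combined peaks, those on X were from 919 to 4247 bp wide (median 1380 bp), with 12 of 15 under 2 kb. The 10 autosomal ones had widths from 2391 to 7787 bp (median 4492 bp), and none was under 2 kb. Of the other 328 X peaks 319 were under 2 kb, and their median width was 427.5 bp. The ranges of the strongest X and autosomal peaks overlapped only through 3 X sites, those at X 11789606, X 16929318 and X 4006843. The replicate 1 peaks at these strongest sites had a median width of 1397 bp on X and 4372 bp on the autosomes. The best replicate 2 peaks had 968 and 1117 bp, so the contrast was much smaller in replicate 2. There 7 of the 10 autosomal peaks were held as several peaks. At ranks 26 to 100 of the combined list the median was 935 bp on X (17 peaks) and 1704 bp on the autosomes (58 peaks). Lower in the list the order turned, and at ranks 301 to 600 the median was 725 bp on X (44 peaks) and 502 bp on the autosomes (256 peaks). Over all peaks the X median was 446 bp (middle 50%, 310 to 789.5 bp). Across the X peaks, width and -log10 q had a Spearman rho of 0.65 (n = 343), and within the 32 X peaks among the 100 strongest it was 0.31. For the autosomes the values were 0.57 (n = 1819) and 0.51 (n = 68). The smaller sets were chosen by -log10 q, which by itself narrows its range and lowers rho.

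**Figure D3:**
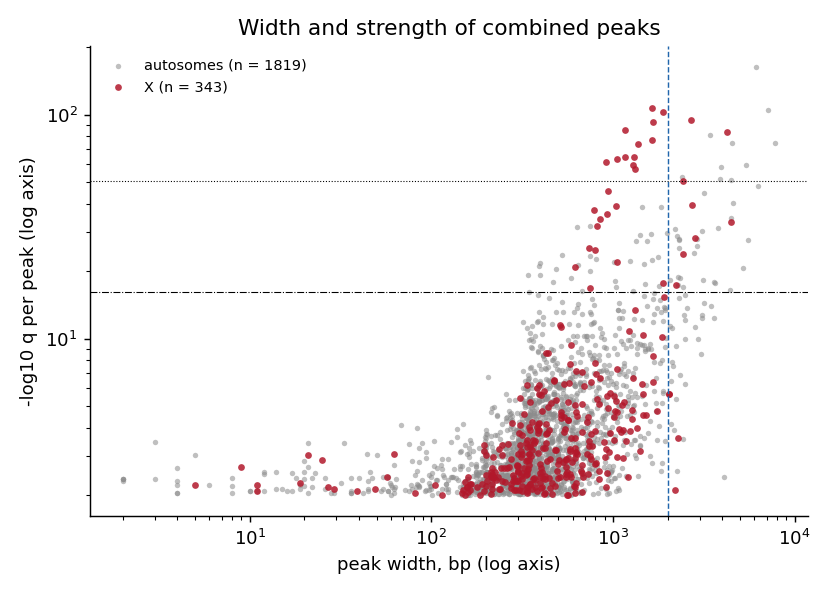
Width (bp, log axis) and strength (-log10 q, log axis) of each combined peak, X in red (n = 343) and autosomes in grey (n = 1819). The horizontal lines mark the weakest of the 25 and of the 100 strongest peaks, the vertical dashes mark 2 kb, and 12 X peaks but no autosomal peak lie above the upper line to the left of the dashes.

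Support in the ChIP lists was counted as an overlap of 1 bp or more. Of the 343 X peaks, 196 (57.1%, interval 51.7 to 62.4%) overlapped a replicate 1 peak, beside 56.9% of all combined peaks. In replicate 2 the count was 39 (11.4%, 8.21 to 15.2%), beside 7.35% of all combined peaks. Both lists supported 37 X peaks (10.8%, 7.71 to 14.6%), beside 6.94% of all, and neither list supported 145 (42.3%, 37.0 to 47.7%), beside 42.6% of all. The share in replicate 1 and the share in neither were thus at the background. Chromosome by chromosome, the share supported by both lists was 2.63% on I, 7.44% on II, 6.67% on III, 6.69% on IV and 6.11% on V. Without the 25 strongest of the list, 22 of 328 X peaks (6.71%, 4.25 to 9.98%) and 103 of 1809 autosomal peaks (5.69%, 4.67 to 6.86%) were supported by both, so most of the excess on X lay in its strongest sites. Overlap with replicate 1 alone accounted for 159 X peaks and overlap with replicate 2 alone for 2, at X 15778086 to 15778393 and X 7477933 to 7478839.

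Support in replicate 2 fell with rank on X as on the autosomes. The ranks come from the combined list, made from the same ChIP samples, and are not independent of replicate 2. At ranks 1 to 25 all 15 X peaks and all 10 autosomal peaks were found. At ranks 26 to 100 the counts were 14 of 17 on X (82.4%, 56.6 to 96.2%) and 39 of 58 on the autosomes (67.2%, 53.7 to 79.0%). At ranks 101 to 300 they were 4 of 16 (25%, 7.27 to 52.4%) and 49 of 184 (26.6%, 20.4 to 33.6%). The intervals overlapped in each of these classes. X supplied 16 of the 200 peaks at ranks 101 to 300 (8%, 4.64 to 12.7%), below its 17.6% of the length spanned by peaks, and 155 of the 962 at ranks 1201 to 2162 (16.1%, 13.8 to 18.6%). At those last ranks 122 of the 155 X peaks were in neither ChIP list (78.7%), as were 637 of the 807 autosomal peaks (78.9%).

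**Figure D4:**
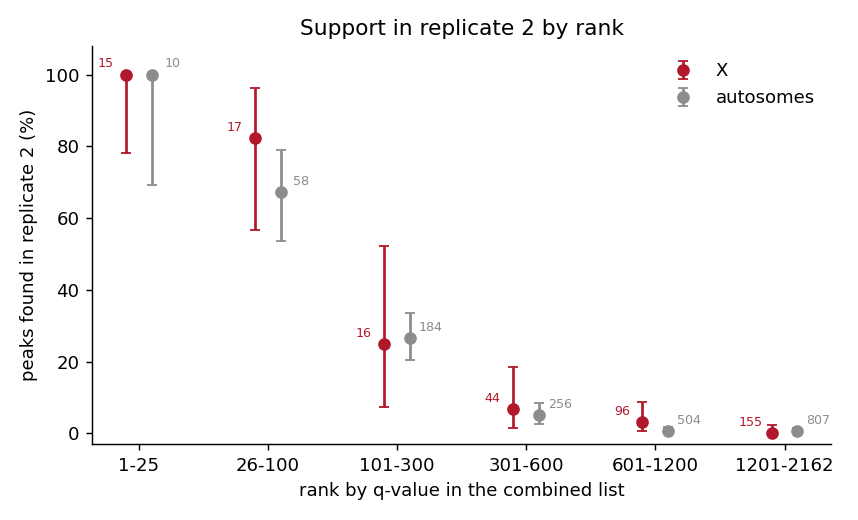
Share of combined peaks that overlap a replicate 2 peak (%), by rank in the combined list, for X (red) and the autosomes (grey); bars are exact 95% intervals and numbers beside the points are the peaks in each class. The share falls from 100% at ranks 1 to 25 to 25% on X and 26.6% on the autosomes at ranks 101 to 300, with overlapping intervals.

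Width was set beside support among the strong X peaks, a comparison chosen after the lists had been seen. X held 32 of the 100 strongest peaks, which are 4.63% of the combined list. Of these 32, the 24 under 2 kb were all found in replicate 2 (100%, 85.8 to 100%), each as 1 peak. Of the 8 that were at least 2 kb wide, 5 were found (62.5%, 24.5 to 91.5%). These intervals overlap, and at ranks 1 to 25 all 12 narrower and all 3 broader X peaks were found. Over the whole list, broad X peaks were found in replicate 2 more often (5 of 12) than X peaks in general (39 of 343). On the autosomes 27 of 33 peaks under 2 kb were found (81.8%, 64.5 to 93.0%), and 22 of 35 broader ones (62.9%, 44.9 to 78.5%). The X and autosomal intervals overlapped in both width classes. Replicate 2 peaks covered a median of 73.8% of the length of the 24 narrower X peaks and 32.2% of that of the 5 broad ones found. The 3 strongest X peaks without a replicate 2 peak were all broad: X 6251719 to 6256187 (4469 bp, -log10 q 33.2, held as 2 peaks in replicate 1), X 17419657 to 17422077 (2421 bp, 23.8) and X 13143362 to 13145570 (2209 bp, 17.4). Next came X 6748715 to 6750619 (1905 bp, 15.4) and X 7725489 to 7726804 (1316 bp, 13.4).

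Broad peaks on X were few and ranged widely in strength. There were 12 of at least 2 kb, or 3.50% of the X peaks beside 3.47% of all combined peaks. The widest was the 4469 bp peak at X 6251719, against 7787 bp on chromosome V. Besides the 3 among the strongest sites and the 3 just named, they lay at X 1010573 to 1013288 (2716 bp, -log10 q 39.5), X 6742013 to 6744837 (2825 bp, 28.1), X 3114699 to 3116722 (2024 bp, 5.68), X 7951439 to 7953481 (2043 bp, 5.63), X 4144352 to 4146615 (2264 bp, 3.61) and X 16611191 to 16613389 (2199 bp, 2.11). The last 2 were in neither ChIP list. Of the 12 broad X peaks, 8 were among the 100 strongest of the list, 10 were found in replicate 1 and 5 in both ChIP lists (41.7%, 15.2 to 72.3%). At the other end, 14 X peaks (4.08%, beside 5.46% of all combined peaks) were under 100 bp, and 11 of these were in neither ChIP list.

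The next X peaks in strength, ranked 16 to 30 on X, lay between the strong sites and the weak population. Their -log10 q ran from 45.4 at X 11936953 to 17.7 at X 13349222 to 13351115, and 13 of the 15 were found in replicate 2. Peaks under 2 kb again made up most of them, among them X 1626563 to 1627600 (39.2 in the combined list, 29.7 in replicate 1), X 1344642 to 1345427 (37.5 and 28.1), X 7181435 to 7182357 (36.1 and 26.5) and X 16681575 to 16682427 (34.1 and 28.9). The peak at X 2364447 to 2365260 had 31.7 in the combined list and 21.02 in replicate 1, and ranked 15 among the 177 peaks of replicate 2 and 48 among the 1288 of replicate 1. The remaining peaks under 2 kb, at X 5840793 to 5841532, X 5429135 to 5429927, X 1389189 to 1390243 and X 806421 to 807040, had values from 25.4 to 20.97 in the combined list. The first 1.76 Mb of X held 5 of the 15.

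Along the chromosome, the strong sites were spread from end to end. The first began 1.503 Mb from the left end, and the 14 gaps between neighbouring strong sites ran from 183 kb to 2086 kb with a median of 1173 kb. When X was divided into 10 equal segments of 1.76 Mb, each held at least 1 of the 15, and the seventh held 3. The closest strong sites were X 11605233 and X 11789606 (183 kb apart) and X 4006843 and X 4208416 (199 kb apart). The longest stretch without one, 2086 kb, lay between X 4208416 and X 6295829. All peaks together also varied from segment to segment: the 10 segments held 37, 21, 41, 33, 50, 27, 22, 31, 39 and 42 combined peaks from left to right. The fifth segment, with the most peaks, had 2 supported by both lists, and the first, with 37 peaks, had 8. Peaks supported by both lists were therefore not most numerous where peaks were.

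**Figure D5:**
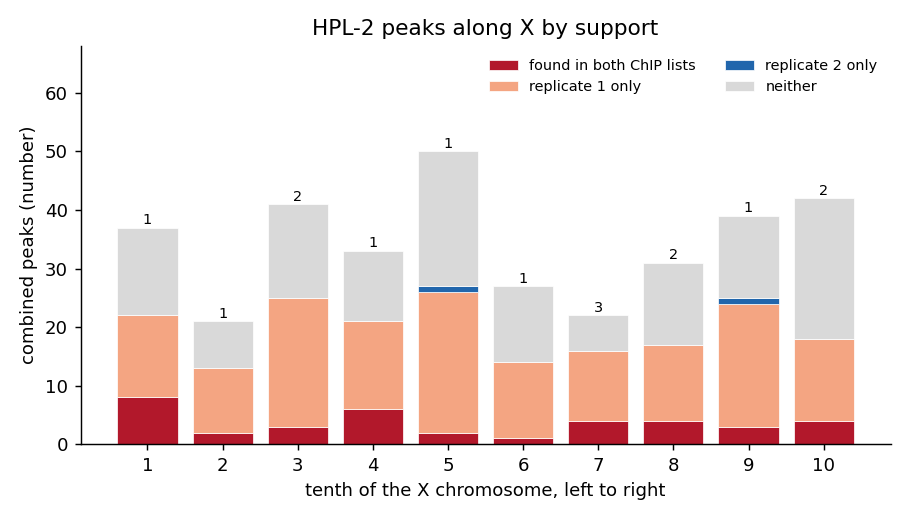
Combined peaks in 10 equal segments of the X chromosome, left to right (number, bars starting at 0), stacked by support in the ChIP lists; the number over each bar is how many of the 15 strongest X sites it holds. Bars range from 21 to 50 peaks, and each holds from 1 to 3 of the strongest sites.

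When X was divided into 3 equal segments, 221 of 343 X peaks (64.4%, 59.1 to 69.5%) lay in the outer ones, against 62.2% of autosomal peaks and 66.7% expected for an even spread. The left, middle and right segments held 104, 122 and 117 peaks. Replicate 1 had 134 of 206 X peaks (65.0%) in the outer segments, and replicate 2 had 31 of 41 (75.6%, 59.7 to 87.6%). The X interval included the even share in each of the 3 lists.

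In the combined list, the density and spacing of X peaks lay within the range of the autosomes. X had 19.5 combined peaks per Mb, above I (15.1) and V (18.9) and below III (24.04), II (25.6) and IV (27.4). They covered 218 kb, or 1.24% of the length, against 1.27% of the autosomes. Replicate 1 had 11.7 X peaks per Mb, also within its autosomal range (7.63 to 17.1). In replicate 2, which is left when replicate 1 is set aside, X had 2.33 per Mb, against 0.465 to 2.24 on the 5 autosomes. The margin over IV was slight (41 peaks on X and 39 on IV), and no interval was computed for it. X peaks of replicate 2 covered 0.184% of its length against at most 0.129% on an autosome. The median gap from the end of a peak to the start of the next was 22.4 kb on X (middle 50%, 4.24 to 70.7 kb). On the autosomes the median ran from 17.7 kb on II to 32.7 kb on I. When neighbours no more than 5 kb apart were joined into runs, 144 of the X peaks (42.0%, 36.7 to 47.4%) fell into 55 runs, beside 47.8% of all combined peaks. The share was 37.7% on I, 46.1% on III, 49.0% on II, 51.4% on V and 54.0% on IV.

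The longest run of all, by number of peaks, included a strong site. It held 9 peaks over 24.1 kb, from X 8012888 to 8037004, and ended in the site at X 8035843. Of its 9 peaks, 1 was in both ChIP lists, 3 in replicate 1 alone and 5 in neither. A second long run, from X 428666 to 440379, held 6 peaks that were all in neither list, the best at rank 816. Runs of 5 peaks lay from X 3816215 to 3825228 and from X 8231733 to 8248121, and their best peaks ranked 182 and 174. The run at X 6737231 to 6750619 held 4 peaks, including the broad one at X 6742013. A run may be 1 broad region that the caller reported in pieces, and pieces cannot be told apart from separate sites with these lists.

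Most strong sites had no neighbour within 5 kb, though most had other peaks within 50 kb. Only 3 of the 15 had a neighbour within 5 kb (20%), against 141 of the other 328 X peaks (43.0%), and the median distance to the nearest peak was 20.4 kb against 7.73 kb. The share of 20% rests on few sites, and no interval was computed for it. The sites at X 9465307, X 11093636 and X 16055863 had no other peak within 50 kb of their midpoint, and their nearest peaks were 74.2, 56.8 and 72.3 kb away. The sites with a close neighbour were X 8035843, X 11605233 and X 16929318, at distances of 3.97, 0.485 and 0.28 kb. The median number of other peaks within 50 kb was 2 for the strong sites and 2 for the others.

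The closest pairs of X peaks joined unequal partners as well as weak ones. The smallest gap, 220 bp, lay between the peaks at X 9071445 to 9071996 and X 9072217 to 9072888, at ranks 1240 and 1527. The next, 225 bp, lay between the peak at X 2364447 (rank 40) and a weak neighbour at X 2365486 to 2365783 (rank 1473). The others among the 5 closest pairs began at X 6521889, X 8018366 and X 1148113, with gaps of 232, 232 and 238 bp. The 5 largest gaps were 399.5, 344.3, 338.2, 301.1 and 299.5 kb. They followed the peaks ending at X 4712238, X 12018263, X 10142301, X 5480845 and X 3379508. The second of them ended at the strong site X 12362575.

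Some peaks of the ChIP lists had no partner. Of the 206 X peaks of replicate 1, 37 (18.0%, 13.0 to 23.9%) overlapped a replicate 2 peak, beside 11.6% of all replicate 1 peaks and 10.4% (8.68 to 12.4%) of the autosomal ones. In order of strength on X, the first 20 replicate 1 peaks were all found in replicate 2, then 11 of the 20 placed 21 to 40 on X. Only 4 of the next 40 and 2 of the last 126 were found. Replicate 2 has only 41 X peaks, beside 206 in replicate 1, and 136 autosomal peaks, beside 1082. These numbers by themselves limit how many can be found, and the limit is not the same for X and the autosomes. In the other direction 38 of the 41 X peaks of replicate 2 (92.7%, 80.1 to 98.5%) overlapped a replicate 1 peak. The share was 92.1% of all replicate 2 peaks and 91.9% of the autosomal ones. The 3 others were X 15778043 to 15778411, X 3007404 to 3007781 and X 7477914 to 7478296, with -log10 q of 3.13, 2.56 and 2.08. The combined list lacked 9 X peaks of replicate 1, none stronger than 2.56, and the replicate 2 peak at X 3007404. The strongest X peak that the combined list had and both ChIP lists lacked was X 11414756 to 11415690 (935 bp, -log10 q 4.89, rank 546). It was followed by X 604657 to 606013 (3.98), X 8820411 to 8820957 (3.96), X 17135602 to 17135952 (3.91) and X 434025 to 434991 (3.78), all of them far below the strong sites.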

How the data were processed

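Per the file headers, the authors deposited peak lists called with PeakSeq for each ChIP sample and for the samples combined, with coordinates on WormBase WS220 after conversion from another build. Each deposited peak has 1 q-value and no read count, fold enrichment or summit. The control library, aligner, caller settings and the making of the combined list were not stated in any source at hand. Per the labels, whole worms were crosslinked in 2% formaldehyde and sonicated before precipitation of the GFP tag. Input samples entered no comparison.

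Peaks were ranked within each list by q-value. Overlap (1 bp or more), gaps (bases between neighbouring peaks), runs (gaps of at most 5 kb) and widths were computed with Python 3.11.15, NumPy 2.4.6 and SciPy 1.17.1, and the functions were tested on simulated data. Chromosome lengths run to the last base of the outermost peak in the 3 lists. The peaks named are the X peaks among the 25 strongest, those ranked next on X up to 30, those of at least 2 kb, the 5 strongest without support in replicate 2 or in either list, unmatched peaks of the ChIP lists, and the 5 largest gaps and closest pairs. Long runs and the sites nearest to strong ones were named after their values had been seen. The members and lists were chosen with earlier results of these data known. Whether the ChIP samples stem from separate cultures is not in the labels. No genome or gene positions on WS220 were used, so no peak is assigned to a gene.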

Additional observations from a re-analysis of the deposited data

How the results depend on the processing

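Of 37 values of 10 results under other settings (31 planned, 6 added after the data were seen), 22 stayed within the main interval (within 1.5 times for peaks per Mb). Shorter lists lowered X peaks per Mb from 19.5 to 2.33 and 11.7 with 1 replicate left out and to 9.49 among the peaks with the smaller q-values, and they raised the median gap from 22375 bp to 313842 and 44159 bp, and to 62187 bp. With 1 replicate left out, the median width of X peaks was 618 and 531.5 bp in place of 446 bp, that of the X peaks among the 25 strongest 939.5 to 1330.5 bp in place of 1380 bp, and the share in outer segments 65.0% to 75.6% in place of 64.4%. The X share of the 25 strongest was 64% to 72% in place of 60%, and that of the 100 strongest was 32%. The outer 0.25 at each end held 53.1% of X peaks, by construction a shorter part. Without the 25 strongest peaks, 7.32% of X peaks were found in replicate 2 and 6.71% in both lists. Among the peaks with the smaller q-values 22.2% were in both. The other overlap rules left the shares of X peaks found in replicate 1, in replicate 2 and in both lists, and that of the X peaks under 2 kb among the 100 strongest, within their intervals; other shares were not recomputed under them. Without replicate 1, X had more peaks per Mb than all 5 autosomes, though only slightly more than IV (2.33 against 2.24). No paired analysis was possible because the Input samples had no list in use and the values describe regions, not samples. Without the read depth, peak numbers cannot be compared between lists, and without the calling settings neither can widths.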
